A study of Homo sapiens with 6 samples.

Results

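The windows described here are 1791 stretches of 10 kb in which the reads of both CDK2 and PARP1 stood higher against their surroundings after 30 min of progestin than before it. They were chosen by their 0 and 30 min counts among 256913 autosomal windows that held at least 50 reads of each antibody at 0 min, out of 303641 windows in the whole table. In each window the log2 ratio of the 30 min to the 0 min count was taken, 0.5 being added to each count, and its running median over 41 consecutive kept windows of the chromosome was subtracted. The result is the local ratio, and a window belonged to the jointly raised windows where the local ratio was at least 1.5-fold (0.585 on the log2 scale) for both antibodies.

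The counts come from chromatin immunoprecipitation and sequencing (ChIP-seq) in T47D-MTVL, a human breast cancer cell line made from T47D, in which a reporter under a mouse mammary tumour virus promoter is integrated. All cells were first kept in medium with charcoal-treated serum and then without serum. The libraries are CDK2 without hormone (0 min), CDK2 after 5 and after 30 min of 10 nM R5020, a synthetic progestin, and PARP1 at the same 3 times. Each antibody and time is 1 library, so there is no measure of replicate error and no test of the hormone was possible. The libraries held 40097131 to 63448449 reads, and the median kept window held 155, 195 and 137 CDK2 reads at 0, 5 and 30 min and 190, 201 and 217 PARP1 reads.

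CDK2 is a cyclin-dependent kinase, known best for driving cells into DNA replication together with its cyclin partners. PARP1 is an abundant nuclear enzyme that binds DNA and nucleosomes and attaches chains of ADP-ribose to itself, to histones and to other proteins, which loosens chromatin. Progestins act through the progesterone receptor, which in breast cancer cells both binds chromatin and switches on kinase cascades, and the study addressed the activation of PARP1 through CDK2 in it. A window counted for both antibodies is therefore a place where the deposited reads of the kinase and of the enzyme it is reported to activate were both locally higher at 30 min. The windows are in build hg19, for which no gene annotation or genome sequence was used here, so they are given by position and not by gene.

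Local gains of single antibodies were frequent for CDK2 and rarer for PARP1. The local ratio reached 1.5-fold in 41688 windows for CDK2 (16.2% of those kept) and in 7928 for PARP1 (3.09%). Both conditions met in 1791 windows, which is 0.697% of the kept windows, 4.30% of the CDK2 list and 22.6% of the PARP1 list. Windows that were lower for both by the same factor were more frequent, with 2429 (0.945%). The list of lower windows was also the longer one for each antibody alone, with 49623 for CDK2 (19.3%) and 9204 for PARP1 (3.58%). The mixed kinds were rarer, with 1406 windows (0.547%) higher for CDK2 and lower for PARP1, and 1451 (0.565%) lower for CDK2 and higher for PARP1. Of the 9204 windows lower for PARP1 (3.58%), 15.3% were higher for CDK2, near the 16.2% of all kept windows. These counts use the values that chose the windows and are a description without a test.

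**Figure D1:**
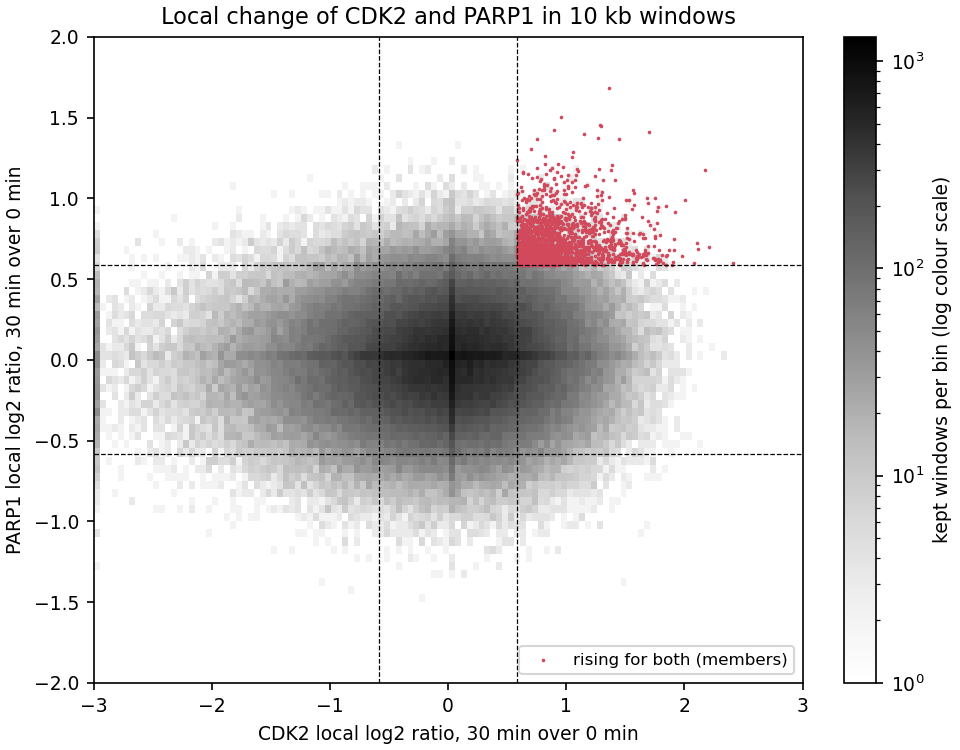
Local log2 ratio of 30 min over 0 min for CDK2 (horizontal) and PARP1 (vertical) in all kept windows, as a grey density with a log colour scale, with the 1791 jointly raised windows in red and dashed lines at 1.5-fold in either direction. The cloud is wider for CDK2 than for PARP1, most red points lie close to the PARP1 limit, values beyond the axes are drawn in the outermost bins, and the dark lines at 0 are windows that equal their own running median.

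The spread of the local ratio over all kept windows gives the scale for these gains. Its robust standard deviation (the median absolute deviation, scaled to a normal distribution) was 0.62 on the log2 scale for CDK2 and 0.30 for PARP1. Counting error alone at the median counts would give 0.17 and 0.14. The jointly raised windows had a median local log2 ratio of 0.88 for CDK2 (quartiles 0.72 and 1.09) and 0.69 for PARP1 (0.63 and 0.80). Those medians are 1.42 robust standard deviations for CDK2 and 2.33 for PARP1. The limit itself, 0.585 on the log2 scale, was below the robust standard deviation of CDK2 (0.62) and above that of PARP1 (0.30). It thus lay within the ordinary spread between CDK2 windows. PARP1 had the smaller of both local ratios in 1328 windows and CDK2 in 463. Most gains were close to the limit. The smaller local log2 ratio had a median of 0.67, and it was under 0.7 in 62.9% of the windows. It reached 2-fold in 38 windows. With a limit of 2 robust standard deviations for each antibody, chosen after seeing the data, 267 windows qualified.

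The windows at the limit looked alike on both sides of it. Just inside lay chr19:50270001-50280000, with 98, 91 and 175 CDK2 reads and 80, 127 and 164 PARP1 reads at 0, 5 and 30 min and a smaller local log2 ratio of 0.5851. The other windows just inside were chr4:14750001-14760000 and chr7:117270001-117280000, both at 0.5852. Just outside lay chr5:106490001-106500000, with 119, 243 and 124 CDK2 reads, 128, 153 and 215 PARP1 reads and a smaller ratio of 0.5849. The next outside were chr13:20900001-20910000 at 0.5849 and chr2:55500001-55510000 at 0.5848.

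In raw reads, the jointly raised windows were poor in reads at 0 min and ordinary or better at 30 min. Their median CDK2 count was 107, 148 and 175 at 0, 5 and 30 min, against 155, 195 and 137 in all kept windows. Their median PARP1 count was 119, 167 and 218, against 190, 201 and 217. For PARP1 the 30 min count was thus that of a typical window, while the 0 min count was well under it. Scaled by library totals, the ratio of 30 min to 0 min had a median of 1.79 for CDK2 (quartiles 1.52 and 2.17) in these windows, against 0.963 in all kept windows. For PARP1 it had a median of 1.62 with an upper quartile of 1.77, against 0.997. The windows were selected on these counts, so the ratios are a description.

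How the gain divided between a low start and a high end was read from the local level, which is the log2 count in 1 library minus its running median over the same 41 windows. For PARP1 the median local level was -0.39 at 0 min, 0 at 5 min and 0.31 at 30 min. Before hormone, 1705 of the 1791 windows (95.2%, against 48.2% of kept windows) lay below their surroundings in PARP1. After 30 min, 1476 windows (82.4%, against 48.3%) lay above them. For CDK2 the median local level was -0.23 at 0 min, -0.085 at 5 min and 0.67 at 30 min. At 0 min 1340 windows (74.8%, against 48.2%) were below their surroundings for CDK2, and at 30 min 1676 (93.6%, against 48.4%) were above. By these medians the larger part of the CDK2 difference lay in the 30 min library. For PARP1 the 0 min part was slightly larger, and with a 0 min minimum of 100 reads the order turned, with -0.32 at 0 min and 0.37 at 30 min. The robust standard deviation of the local level over all kept windows was 0.31 at 0 min and 0.59 at 30 min for CDK2, and 0.25 and 0.28 for PARP1. A clear local excess at 30 min, of at least 1.5-fold over the surroundings for both antibodies, was present in 176 of the windows (9.83%, against 0.49% of kept windows). A clear local deficit of the same size at 0 min for both was present in 230 (12.8%, against 2.98%). The 0 and 30 min libraries chose the windows, so these shares are a description.

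**Figure D2:**
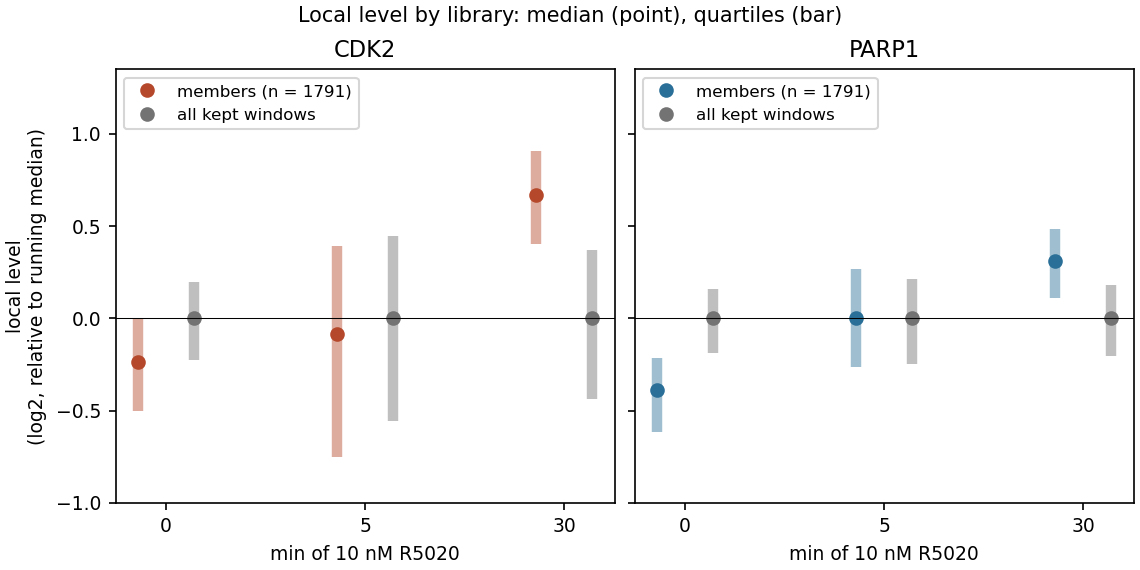
Local level (log2, relative to the running median of the same library) at 0, 5 and 30 min of R5020, evenly spaced, for CDK2 on the left and PARP1 on the right, with the 1791 jointly raised windows in colour and all kept windows in grey; points are medians and bars run between the quartiles. PARP1 goes through -0.39, 0 and 0.31 and CDK2 through -0.23, -0.085 and 0.67, while the 5 min medians of the windows lie near those of all kept windows.

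The 5 min libraries took no part in the choice of the windows. At 5 min PARP1 was above its surroundings in 895 of the 1791 windows, 50% with a 95% Wilson interval of 47.7 to 52.3%, against 48.4% of all kept windows. CDK2 was above its surroundings in 781 windows, 43.6% (41.3 to 45.9%), against 48.6%. Both were above in 437 windows, 24.4% (22.5 to 26.4%), against 25.4%. These intervals count windows of 2 libraries and do not stand for replicates. The share for PARP1 depended on the limits. It was 58.5% with a 0 min minimum of 100 reads, 47.7% with a minimum of 20, 53.9% with ratios scaled by totals only and 68.4% of 38 windows with a fold limit of 2. For CDK2 the share with the fold limit of 2 was 36.8%.

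The tails at 5 min were heavier than in the rest on both sides for PARP1. A local PARP1 excess of at least 1.5-fold was present in 89 windows (4.97%, against 3.13%) and a deficit of that size in 185 (10.3%, against 8.4%). For CDK2 an excess was present in 297 windows (16.6%, against 18.5%) and a deficit in 528 (29.5%, against 24%). Both antibodies had the excess in 28 windows (1.56%, against 0.869%) and both the deficit in 103 (5.75%, against 3.56%). The CDK2 library of 5 min had 0 reads in 40 of the windows (2.23%), against 0.808% of kept windows. Without those 40 windows, an alternative added after seeing the data, the median CDK2 level at 5 min was -0.060.

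The windows were also set beside others with a similar start. The PARP1 level at 0 min of the middle 50% of the jointly raised windows ran from -0.62 to -0.22. The 895 jointly raised windows in this range had a median PARP1 level of 0.060 at 5 min, against -0.13 in all 44127 kept windows in the range. Their 0 min medians were close but not equal, at -0.39 against -0.34. For CDK2 the corresponding range was -0.50 to 0, and the median level at 5 min was -0.028 in the 948 jointly raised windows in it, against -0.014 in the 108781 kept windows. Their 0 min medians were -0.22 and -0.16. The ranges fix the 0 min level only, and the jointly raised windows were still chosen by their 30 min counts. Their median level at 30 min was 0.30 for PARP1, against -0.15 in the kept windows of the range. For CDK2 it was 0.66, against -0.0083. The differences at 5 min are therefore not independent of the choice of the windows. These are medians over windows of single libraries and were not tested.

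Against 0 min, PARP1 had a higher depth-scaled count at 5 min in 1519 of the windows (84.8%, against 48.7% of kept windows), and CDK2 in 922 (51.5%, against 46.5%). The counts went up in the order 0, 5 and 30 min in 1147 windows for PARP1 (64%, against 13.9%) and in 640 for CDK2 (35.7%, against 11%). Both antibodies followed that order in 415 windows (23.2%, against 1.91%). All of these counts share the 0 min libraries with the choice of the windows, and the counts in the order 0, 5 and 30 min share the 30 min libraries too, so these shares are not independent of that choice.

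CDK2 and PARP1 were also set against each other within each time. The median log2 ratio of CDK2 to PARP1, scaled by totals, was 0.17, -0.23 and 0.32 at 0, 5 and 30 min in the jointly raised windows, against -0.0016, -0.064 and -0.046 in all kept windows. Antibodies differ in yield, which such a ratio contains. Of the 3 times, 5 min alone took no part in the choice of the windows, and there the median leaned to PARP1. The robust standard deviation of this ratio over all kept windows was 0.81 at 5 min. The 5 min levels were still related to the 0 min levels that entered the choice. Across kept windows Spearman's rho between the levels at 0 and 5 min was 0.32 for PARP1 and 0.17 for CDK2. The local ratios of the antibodies at 30 min were weakly related. Across all kept windows Spearman's rho between the CDK2 and the PARP1 local ratio was 0.062. Across the 1791 windows it was 0.059, but the choice had cut both ratios there at 1.5-fold, so that value says little by itself. At 5 min the local levels of both antibodies had a rho of 0.20 across the jointly raised windows and 0.13 across all kept windows. Windows of 1 pair of libraries share library and mappability, and these values are descriptions.

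Jointly raised windows made up 0.697% of kept windows, a share at which most would have no other beside them. Of the 1791 windows, 1757 had no jointly raised window next to them, and the other 34 formed 17 pairs. The windows directly beside them, 3485 kept windows 10 kb away on either side, had a median depth-scaled ratio of 30 min to 0 min of 0.966 for CDK2, against 0.963 in all kept windows, and of 1.00 for PARP1, against 0.997. Their median local log2 ratio was 0 for CDK2 and 0.0066 for PARP1, values that the centring on a running median itself pulls towards 0. These neighbours come from the same libraries and entered the choice of the windows through the running median. Among the neighbours the local ratio reached 1.5-fold in 19.8% for CDK2, against 16.2% of all kept windows, and in 4.59% for PARP1, against 3.09%. From 20 to 200 kb the shares ran from 15.4 to 20.4% for CDK2 and from 3.18 to 4.80% for PARP1, depending on the distance. Jointly raised windows made up 0.976% of the direct neighbours, against 0.697% of kept windows, and between 0.581 and 1.16% at 20 to 200 kb.

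**Figure D3:**
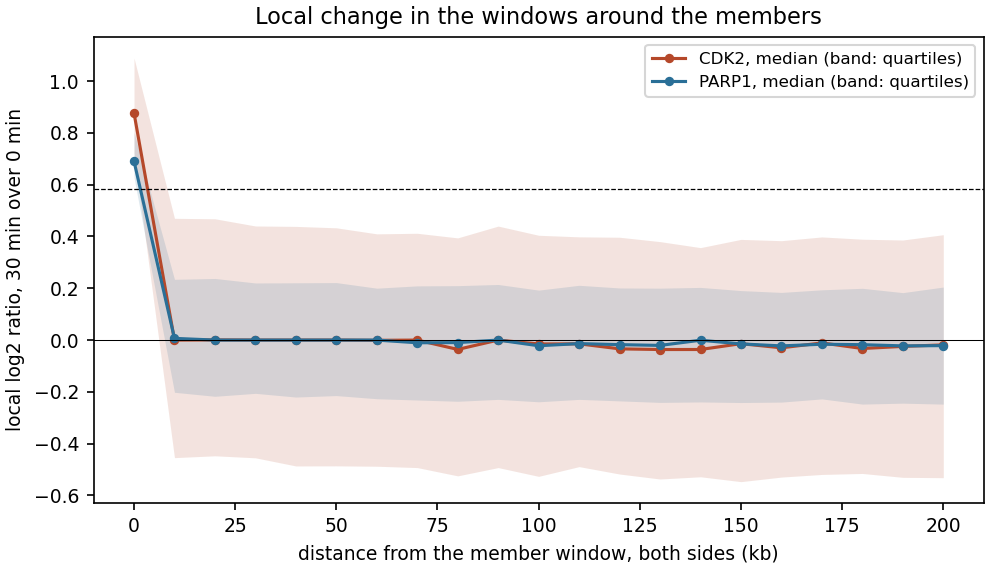
Local log2 ratio of 30 min over 0 min (vertical) in the kept windows at a given distance on either side of the 1791 jointly raised windows (horizontal, kb), with medians as points and quartiles as bands, CDK2 in red and PARP1 in blue, and a dashed line at 1.5-fold. The medians are 0.88 and 0.69 in the windows themselves and 0 and 0.0066 at 10 kb.

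The foremost pair was chr14:21490001-21510000. Its first window held 85, 23 and 174 CDK2 reads and 54, 105 and 150 PARP1 reads at 0, 5 and 30 min, and its second 57, 51 and 186 CDK2 reads and 66, 104 and 165 PARP1 reads. Both windows were lowest in CDK2 at 5 min and intermediate in PARP1 at 5 min. Over the pair the depth-scaled ratio of 30 min to 0 min was 2.85 for CDK2 and 2.31 for PARP1. The pair at chr9:84230001-84250000 held 210, 274 and 510 CDK2 reads and 258, 371 and 512 PARP1 reads in all, with ratios of 2.73 and 1.74. The pair at chr4:78200001-78220000 held 121, 138 and 258 CDK2 reads and 167, 284 and 388 PARP1 reads, with ratios of 2.40 and 2.04. The pairs at chr2:24290001-24310000 and chr10:107470001-107490000 had lower ratios, with 1.59 and 1.47 for CDK2 and 1.82 and 1.47 for PARP1.

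A group of 10 windows was taken for their well-measured gain, by the lower bound of the 95% counting interval in the antibody where it was smaller. At chr1:43390001-43400000 CDK2 had 129, 245 and 363 reads at 0, 5 and 30 min, and PARP1 had 90, 177 and 274. Both antibodies were lowest at 0 min and highest at 30 min. The depth-scaled ratio of 30 min to 0 min was 3.17 for CDK2 (2.58 to 3.90) and 2.68 for PARP1 (2.10 to 3.43), with intervals that cover counting error only. At chr10:129670001-129680000 CDK2 had 72, 132 and 258 reads and PARP1 had 84, 168 and 247. This window had the highest smaller local log2 ratio of all, 1.41, with 1.70 for CDK2. At 5 min its local level was close to the surroundings, with 0.078 for CDK2 and 0.19 for PARP1.

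At chr22:19720001-19730000 CDK2 had 51, 155 and 305 reads and PARP1 had 73, 171 and 209. The CDK2 ratio of 6.73 (4.99 to 9.24) was the highest of the 1791 windows, and its PARP1 ratio was 2.52 (1.92 to 3.33). The CDK2 count at 0 min was just above the minimum of 50. At chr11:45920001-45930000 CDK2 had 145, 186 and 357 reads and PARP1 had 139, 363 and 385. PARP1 there was as high at 5 min as at 30 min once depth was taken into account, with 6.21 and 6.07 RPM, or reads scaled to the library total, whereas CDK2 had 3.21 RPM at 0 min, 3.22 at 5 min and 8.90 at 30 min. At chr19:3570001-3580000 CDK2 had 71, 95 and 204 reads and PARP1 had 62, 213 and 190, again with PARP1 highest at 5 min.

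Both windows of chromosome 18 in this group were higher for PARP1 and lower for CDK2 at 5 min than at 0 min, scaled by depth. At chr18:3590001-3600000 CDK2 had 99, 78 and 217 reads and PARP1 had 86, 223 and 244. At chr18:45540001-45550000 CDK2 had 108, 114 and 247 reads and PARP1 had 96, 246 and 262. The remaining windows were chr13:43130001-43140000, chr20:24420001-24430000 and chr6:3670001-3680000, with ratios between 2.40 and 2.45 for CDK2 and between 2.34 and 2.64 for PARP1. At chr13:43130001-43140000 CDK2 had 95, 35 and 203 reads, a deficit at 5 min, and PARP1 had 61, 125 and 183.

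**Figure D4:**
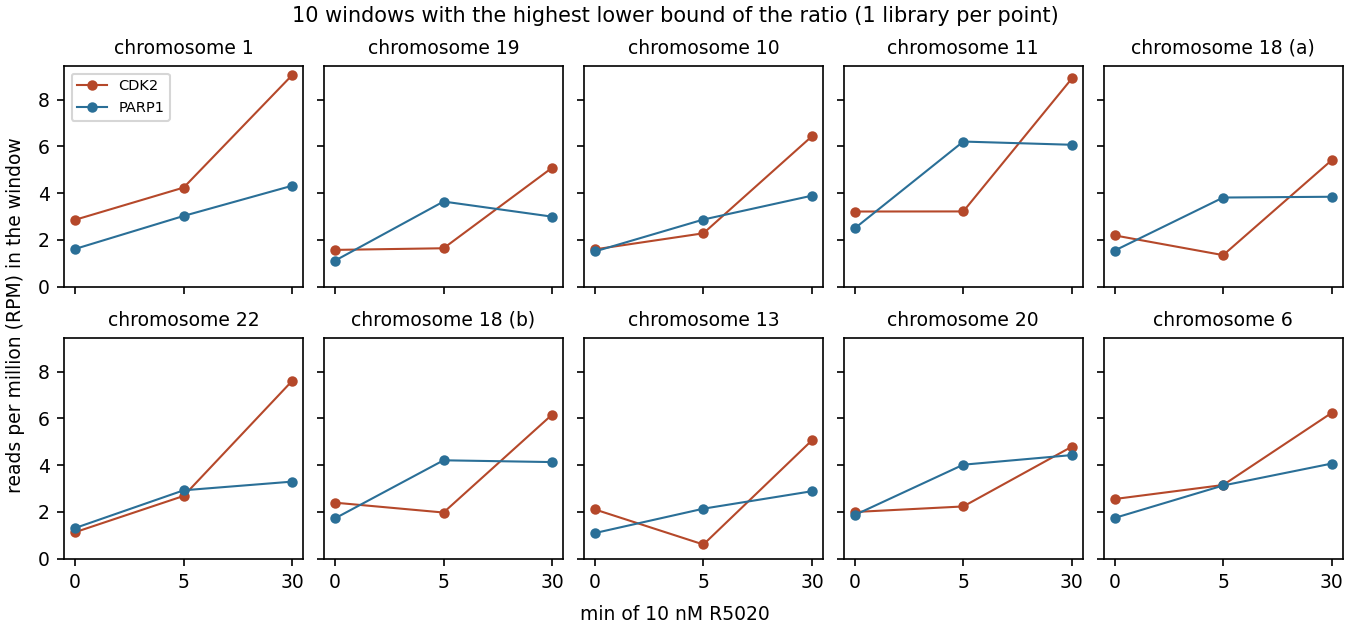
RPM (reads scaled to library totals) in the 10 windows with the highest lower bound of the 30 min to 0 min ratio, at 0, 5 and 30 min of R5020 (evenly spaced), CDK2 in red and PARP1 in blue, with 1 library per point; (a) and (b) on chromosome 18 start at 3590001 and 45540001. PARP1 is higher at 5 min than at 0 min in 10 of 10 windows and CDK2 in 7 of 10, and CDK2 is highest at 30 min in all 10.

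Taken over these 10 windows, PARP1 was above its 0 min value at 5 min in 10 of 10 and above its 30 min value in 3. CDK2 at 5 min was above its 0 min value in 7, below it in 3 and above its 30 min value in none. The median local level of PARP1 was -0.70, 0.18 and 0.49 at 0, 5 and 30 min, and that of CDK2 was -0.37, -0.10 and 1.03. The 10 windows were picked for a low 0 min and a high 30 min count, and only the 5 min counts took no part in that choice. At 5 min PARP1 lay above its surroundings in 8 of 10, against 50% of the 1791 windows and 48.4% of kept windows. CDK2 did so in 4 of 10, against 43.6% and 48.6%.

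Of the 5 windows that were deepest at 0 min, those on chromosomes 21 and 12 stood above their surroundings in every library, while those on chromosomes 11 and 3 were below them in PARP1 at 0 min, with local levels of -0.37 and -0.21. At chr21:9820001-9830000 CDK2 had 2096, 1640 and 3157 reads at 0, 5 and 30 min, and PARP1 had 3465, 5294 and 10364. Its local PARP1 level was 5.06 at 5 min and 5.85 at 30 min, far above every other window named here, and it lay 0.410 Mb from a run of at least 50 windows with 0 reads in all 6 libraries or from the chromosome's end. At chr21:10820001-10830000, 0.360 Mb from such a run or end, CDK2 had 431, 727 and 680 reads and PARP1 had 594, 744 and 931. What the nearness to such runs contributes to these values was not tested.

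At chr12:20700001-20710000 CDK2 had 320, 621 and 425 reads and PARP1 had 448, 488 and 1126. The PARP1 count was nearly level between 0 and 5 min and higher at 30 min, with a depth-scaled ratio of 2.21 (1.98 to 2.47). The raw CDK2 count was highest at 5 min, in a library deeper than that of 30 min, and the CDK2 ratio was 1.49 (1.29 to 1.73). At chr11:129180001-129190000 CDK2 had 392, 431 and 480 reads and PARP1 had 307, 548 and 665. At chr3:174380001-174390000 CDK2 had 475, 800 and 521 reads and PARP1 had 479, 580 and 769. The CDK2 ratios of both windows were small, 1.38 and 1.23, and their local gains came in part from surroundings in which CDK2 was lower at 30 min.

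At the ends of the 5 min scale, the windows with the highest local level in both antibodies included the windows just named on chromosomes 21 and 12. The others were chr2:230040001-230050000 and chr1:27660001-27670000. At chr2:230040001-230050000 CDK2 had 175, 306 and 299 reads and PARP1 had 370, 404 and 813, with a PARP1 level of 1.23 at 0 min, 1.23 at 5 min and 2.14 at 30 min. At chr1:27660001-27670000 CDK2 had 93, 409 and 188 reads and PARP1 had 83, 290 and 211, so that both antibodies were highest at 5 min. The 5 windows with the lowest 5 min level all held 0 CDK2 reads in that library. One of them, chr4:78000001-78010000, had 71, 0 and 179 CDK2 reads and 79, 98 and 180 PARP1 reads. Another, chr6:5100001-5110000, had 90, 0 and 128 CDK2 reads and 145, 292 and 281 PARP1 reads, so the gap at 5 min was in CDK2 alone. The other windows were chr10:112570001-112580000, chr4:177200001-177210000 and chr16:62160001-62170000, where CDK2 had 196, 121 and 125 reads at 30 min and 114, 115 and 99 at 0 min.

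The frequency of jointly raised windows followed read depth closely. Where the smaller of both 0 min counts was 50 to 75, 352 of 11771 kept windows (2.99%) were jointly raised. The share was 1.85% at 76 to 100 reads, 0.749% at 101 to 150, 0.299% at 151 to 200, 0.125% at 201 to 300 and 0.0610%, or 6 of 9831 windows, above 300. The 0 min count is also the denominator of the ratio, and what depth contributes to these shares was not tested. The 5 min level also followed the 0 min count. The median PARP1 level at 5 min was -0.22 in the jointly raised windows of the lowest class, against -0.35 in all kept windows of that class. It was 0.072 at 101 to 150 reads and 0.16 at 151 to 200, against 0 in kept windows of either class, and 0.18 at 201 to 300, against 0.043. For CDK2 the same medians were -0.44, -0.014, 0.023 and 0.025, against -0.45, 0, 0 and 0.061. In the class of 76 to 100 reads, with 524 jointly raised windows, the median 5 min level was -0.018 for PARP1, against -0.10, and -0.085 for CDK2, against -0.13. In the 6 windows above 300 reads it was 0.74 for PARP1, against 0.079, and 0.83 for CDK2, against 0.12. The median PARP1 level at 5 min was thus above that of kept windows of the same class in all 6 classes, and the median CDK2 level in 4 of 6. For CDK2 the class of 50 to 75 reads was nearly level, at -0.44 against -0.45, and the class above 300 reads held only 6 windows. The classes fix the smaller 0 min count only, and the jointly raised windows were also chosen by their counts at the last time. The differences at 5 min are therefore not independent of that choice, and they were not tested.

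Along the genome, jointly raised windows were most frequent on chromosome 19, with 72 of 5172 kept windows or 13.9 per 1000 (exact 95% interval 10.9 to 17.5), and on chromosome 22, with 11.8 per 1000 (8.32 to 16.2). Chromosomes 18 and 4 followed with 10.5 per 1000 each, and chromosome 2 with 10.2. The lowest were chromosome 12, with 3.92 per 1000 (2.90 to 5.18), chromosome 8, with 4.14, and chromosome 5, with 4.16. Chromosomes 19 and 22 are rich in genes, while chromosomes 4 and 18 are poor in genes. This order followed that of read depth. The median PARP1 count at 0 min was 115 on chromosome 19 and 126 on chromosome 22, against 282 on chromosome 12 and 279 on chromosome 8. Over the 22 autosomes Spearman's rho between jointly raised windows per 1000 and this median was -0.94. The rate of windows lower for both antibodies had a rho of 0.84 to that of the jointly raised ones, and it reached 19.3 per 1000 on chromosome 19. The part of depth in the shares per chromosome was likewise not tested.

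**Figure D5:**
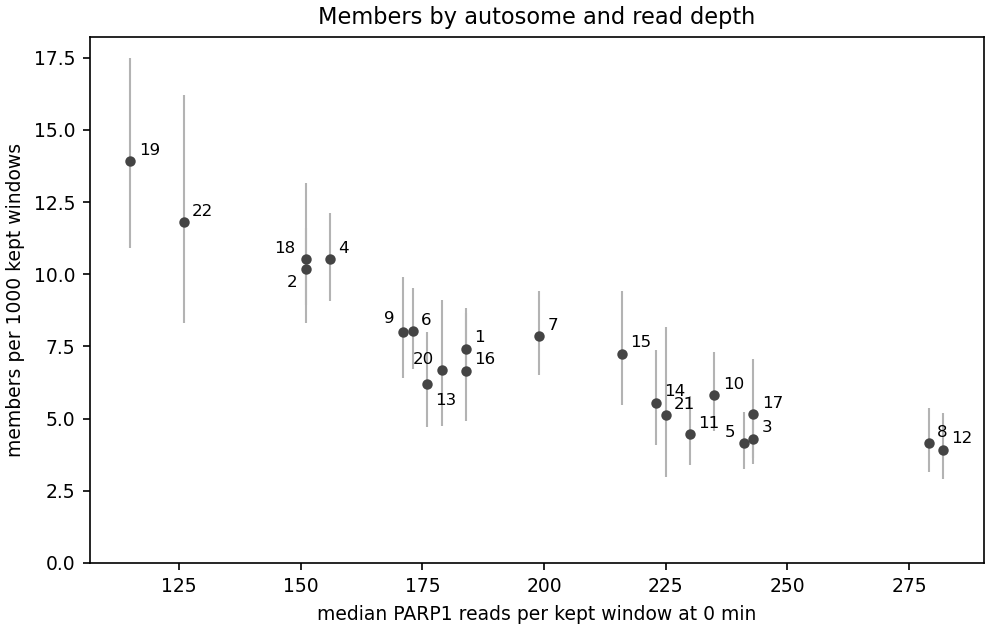
Jointly raised windows per 1000 kept windows (vertical, with exact 95% intervals that cover counting of windows only) against the median PARP1 reads per kept window at 0 min (horizontal), 1 point per autosome with its number. Chromosome 19 is highest at 13.9 per 1000 with a median of 115 reads, and chromosome 12 lowest at 3.92 with 282 reads.

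Chromosomes 16, 17, 19, 20 and 22, on which earlier results of these data had shown larger shares of reads after hormone, held 234 of the 1791 windows, 13.1% against 11.2% of kept windows. Chromosomes 19 and 22, the shallowest of them, were above the average of all autosomes, while chromosomes 16, 17 and 20 were not, with 6.66, 5.14 and 6.67 per 1000 against 6.97. With a 0 min minimum of 100 reads the share was 9.79%, against 9.68% of the windows kept at that minimum. Without the running median, when ratios were scaled by library totals only, these chromosomes held 26.7% of the 2753 windows that then met the limit. That scaling keeps the change of the surroundings. The chromosomes had been singled out by their larger shares in these same libraries, so this share was not independent of that choice. The jointly raised windows were also counted by the change of their surroundings, which is the running median that the rule subtracted. In the 20% of kept windows whose surroundings had the lowest PARP1 ratio of 30 min to 0 min, 0.837% were jointly raised, against 0.615% in the 20% with the highest. For CDK2 the shares were 0.798% and 0.666%, with a lower one, 0.623%, in the middle 20%. These shares use values that entered the choice of the windows and were not tested.

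The jointly raised windows were spread over many parts of the genome, and whether they clustered was not tested. Of 2628 blocks of 1 Mb with at least 50 kept windows, 1439 held none, 782 held 1, 278 held 2 and 129 held 3 or more. The median distance to the next one on the chromosome was 830 kb. The fullest blocks, picked after their counts were seen, were chr7:117000001-118000000, with 6 among 100 kept windows, and chr12:13000001-14000000, with 6 among 70. In the block of chromosome 7 their median counts were 94.5, 108 and 171 for CDK2 and 126, 143.5 and 221.5 for PARP1 at 0, 5 and 30 min. In the block of chromosome 12 they were 63, 78 and 113.5 for CDK2 and 60.5, 99.5 and 123.5 for PARP1, shallow counts for a chromosome whose median was 225 and 282 reads at 0 min. Windows within 1 Mb of a chromosome end or of a run of at least 50 windows without reads made up 61 of the 1791, 3.41% against 2.24% of kept windows.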

How the data were processed

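ChIP-seq of CDK2 and PARP1 in T47D-MTVL cells at 0, 5 and 30 min of 10 nM R5020 gave 6 libraries, 1 per antibody and time. The authors deposited whole-number read counts, not normalized, in windows of 10 kb. Per the submitters' processing notes, the aligner was Bowtie 1.0.0 and the build hg19, also called GRCh37. What was done with duplicates and multiple matches is not stated in these notes. Columns were assigned to libraries by their titles.

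Local ratios and local levels were computed with Python 3.11.15, numpy 2.4.6, pandas 2.3.3 and scipy 1.17.1 on autosomal windows with both 0 min counts of at least 50. At chromosome ends the running median of 41 windows used the windows present. Without replicates no count model was fitted. Printed intervals are 95% binomial, Wilson for shares and Clopper-Pearson for count ratios and chromosome shares. They cover counting error only, as reads may be duplicated. Intervals of medians, used only to judge recomputed values, were taken from the ranks of the windows. Those treat windows as independent and cover no replicate error. The rule was also run on simulated data with 200 raised windows. No error rate for the windows reported here was taken from that run. In the real libraries the robust standard deviation of the local CDK2 log2 ratio was 0.62, against 0.17 from counting error alone. How well the rule separates gains near 1.5-fold from that spread was not tested. edgeR 4.0.16 (TMM) and DESeq2 1.42.0 (size factors), run in R 4.3.3 on windows with a mean of at least 10 counts, served for scaling alternatives only. Figures used matplotlib 3.10.9.

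The windows, the alternatives and the rules for naming windows were chosen with earlier results of these data known. Named were the 10 windows with the highest lower bound of the smaller ratio, the 5 deepest at 0 min, the 5 foremost runs, 3 on each side of the limit, and the 5 highest and 5 lowest in the smaller 5 min level. Genes were to be named only with an hg19 annotation. The gene table at hand was of GRCh38.p14, so none was assigned and no sequence was read.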

Additional observations from a re-analysis of the deposited data

Results flagged for a closer look

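Chromosome X was outside the rule. Under the same conditions 214 of its 11026 kept windows (1.94%) had local ratios of at least 1.5-fold for both antibodies, a larger share than the 0.697% of autosomal windows. Its kept windows were shallower, with median counts at 0 min of 87 for CDK2 and 102 for PARP1.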

How the results depend on the processing

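The values depended most on the depth and fold limits and on the local reference. No paired analysis was possible because each antibody and time has 1 library, and no library was left out for the same reason. Of 164 recomputed values, 108 stayed within the 95% interval of the value reported (for the number of windows, within 1.5 times) and 56 moved. For medians that interval came from the ranks of the windows. The count of reversed values was 0, but only levels and adjacent ratios whose reported interval left out 0 could be called reversed. The adjacent PARP1 ratio, outside that condition, went from 0.0066 to -0.015 with a fold limit of 2. The cause of the moves was not tested. Medians of the local level are on the log2 scale, and CDK2 is given before PARP1.

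With a 0 min minimum of 100 there were 1103 windows, with 0 min levels of -0.12 and -0.32, 5 min levels of -0.012 and 0.077 and 30 min levels of 0.72 and 0.37; PARP1 was above its surroundings at 5 min in 58.5%, the adjacent CDK2 ratio was 0.035, the scaled ratios were 1.64 and 1.58, and chromosomes 16, 17, 19, 20 and 22 held 9.79%. With a fold limit of 2 there were 38 windows, with 0 min levels of -0.34 and -0.60, 5 min levels of -0.16 and 0.15 and 30 min levels of 0.93 and 0.53; 36.8% and 68.4% were above their surroundings at 5 min, the adjacent ratios were 0.23 and -0.015, the scaled ratios 2.30 and 2.29, and those chromosomes held 18.4%. Scaled by library totals only there were 2753 windows, with 0 min levels of -0.19 and -0.33, 30 min levels of 0.58 and 0.27, a PARP1 level of 0.040 at 5 min with 53.9% above its surroundings, an adjacent CDK2 ratio of 0.040, a scaled CDK2 ratio of 1.88 and 26.7% on those chromosomes. TMM and size factors gave 3128 and 3143 windows, and scaled CDK2 ratios of 1.86 and 1.87 in the windows reported. With the limit of 2 robust standard deviations, chosen after seeing the data, there were 267 windows, with 0 min levels of -0.47 and -0.43, 30 min levels of 0.97 and 0.26, a CDK2 level of -0.17 at 5 min, 38.2% above for CDK2 and a scaled CDK2 ratio of 2.54.

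The CDK2 level at 0 min was -0.26 with a minimum of 20, -0.22 with a pseudocount of 5 and -0.21 after thinning to 40097131 reads, which also gave a PARP1 level of 0.34 at 30 min. The scaled PARP1 ratio was 1.63 with the pseudocount of 5 and 1.60 with a span of 21 windows, and the adjacent ratios were 0.034 and 0.031 with a span of 81. The remaining alternatives, which left out windows near read-free runs or ends, the 1% of windows with the highest mean, neighbours that were themselves jointly raised, or (added later) windows with 0 CDK2 reads at 5 min, moved no value.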
